A study of Mus musculus with 6 samples.

Results

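TGF-beta and BMP signalling was examined in the livers of *Pai-1*+/- mice and WT controls through 10 genes, chosen by name and found by symbol among the 24421 genes of the deposited table. The genes were the ligand *Tgfb1*, the receptors *Tgfbr1* and *Tgfbr2*, the signal transducers *Smad3* and *Smad4*, the inhibitors *Smad6* and *Smad7*, and the transcriptional regulators *Id1*, *Id2* and *Id3*. All 10 were present. Hepatic mRNA was sequenced from 3 WT and 3 *Pai-1*+/- mice of the C57BL/6 strain, 21 weeks old in the sample labels, fed without restriction on the standard chow (SC) diet. The labels call the WT mice male, and the paper's description of the RNA-seq mice gives male for both genotypes. The heterozygous deficiency is carried in every cell, so the model is not specific to the liver.

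The values are levels over both genotypes together. The deposited table gives each gene the authors' mean normalized count, the average of the libraries after each was scaled by its size factor. Counts of single animals were left out because the 6 column headings match no sample label, so no value could be assigned to a genotype. No value per mouse, SD, replicate number per value or test of *Pai-1*+/- against WT is therefore given, and the question of whether these genes differed between the genotypes was not tested. The library totals are likewise not given, and the mean normalized counts sum to 30045982 over all genes. A level over both genotypes cannot check the genotype labels.

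As background, TGF-beta binds a receptor pair in which the type II receptor phosphorylates the type I receptor, and the type I receptor phosphorylates SMAD2 or SMAD3. These join SMAD4 and enter the nucleus, whereas BMP receptors act through SMAD1, SMAD5 and SMAD9. SMAD6 and SMAD7 are induced by the pathway and limit it, and the ID proteins, which lack a DNA-binding region, hold E proteins away from DNA and are induced by BMPs. In the liver, TGF-beta drives matrix production by stellate cells, and BMP6 from endothelial cells controls hepcidin production by hepatocytes.

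Short stretches before the starts of the receptor genes are shown. *Tgfbr1* and *Tgfbr2* were chosen because they encode partners of a single complex. They also lay close together in level per kb of their longest transcripts. RefSeq gives *Tgfbr1* a pair of starts and *Tgfbr2* 1 start, and all are shown. Each run holds the 250 bases before a RefSeq start on GRCm38.p6, read in the direction of transcription, and none shares a base with a GENCODE exon. The *Tgfbr1* runs are chr4:47352972-47353221 and chr4:47385966-47386215 on the plus strand, the second within the gene, and the *Tgfbr2* run is chr9:116175364-116175613 on the minus strand. Capitals mark matches, on either strand, to CAGAC, the Smad box, or to GGCGCC, a GC-rich Smad site.
Tgfbr1, first start: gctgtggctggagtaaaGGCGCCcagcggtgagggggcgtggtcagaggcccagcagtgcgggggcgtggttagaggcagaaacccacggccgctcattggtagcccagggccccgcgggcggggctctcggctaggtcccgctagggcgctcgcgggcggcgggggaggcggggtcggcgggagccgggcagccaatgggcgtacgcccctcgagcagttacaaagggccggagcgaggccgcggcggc
Tgfbr1, second start: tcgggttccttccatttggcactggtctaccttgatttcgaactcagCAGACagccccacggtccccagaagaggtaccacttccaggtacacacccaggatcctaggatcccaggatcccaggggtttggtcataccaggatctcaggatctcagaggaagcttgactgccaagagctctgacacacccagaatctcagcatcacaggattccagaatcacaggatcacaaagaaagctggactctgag
Tgfbr2: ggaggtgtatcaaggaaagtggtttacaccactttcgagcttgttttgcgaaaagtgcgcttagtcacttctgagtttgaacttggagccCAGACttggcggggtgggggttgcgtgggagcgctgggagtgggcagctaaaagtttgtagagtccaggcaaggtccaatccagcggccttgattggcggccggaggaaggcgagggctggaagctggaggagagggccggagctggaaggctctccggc
The run before the first *Tgfbr1* start holds 1 match to GGCGCC and none to CAGAC. The run before its second start and the *Tgfbr2* run each hold 1 match to CAGAC and none to GGCGCC. The second *Tgfbr1* run lies within the gene, so CAGAC was found upstream of the whole gene for *Tgfbr2* only. A match is a string of letters and not evidence that a Smad protein binds there.

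All 10 genes had a mean normalized count above 100, a level reached by 40.3% of all genes in the table, and hence above 10, a level reached by 53.1%. Their levels ran from 114 for *Id1* to 4723 for *Id2*, with a median of 614. The median of the 12971 genes above 10 was 440.4, with quartiles of 107 and 1243, and 6 of the 10 genes lay above that median. Together the 10 genes accounted for 0.0335% of the summed counts, and *Id2* alone held 47.0% of their sum. For comparison, the hepatocyte gene *Alb* had a mean normalized count of 2155546.

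Longer transcripts collect more reads, so levels were compared between genes per kilobase of the longest transcript in GENCODE M21. On this scale the genes ordered as *Id2*, *Id3*, *Smad4*, *Tgfbr1*, *Tgfbr2*, *Id1*, *Tgfb1*, *Smad3*, *Smad7* and *Smad6*, from 2399 down to 57.6 mean normalized counts per kb. The median of the 10 was 130.5, beside 129 for the 12499 genes above 10 that matched 1 gene model, and 5 of the 10 lay above the latter. Of the 45 pairs of genes, 41 kept their order when the merged length of all exons was used in place of the longest transcript, and 31 kept it when the median transcript length was used as well. No spread between mice was computed for any of these levels, because the counts per animal were not used, so neighbours in the order are not shown to differ.

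**Figure D1:**
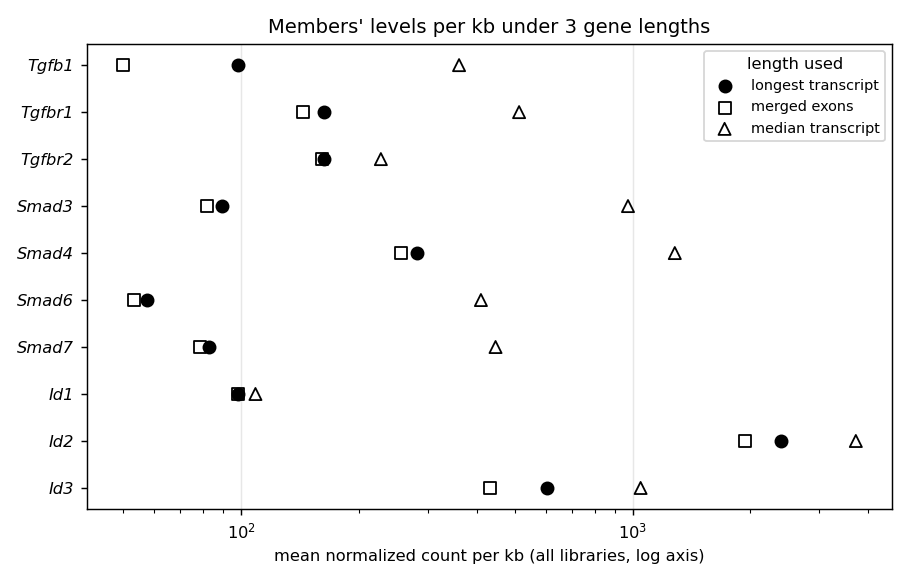
Mean normalized count per kb over all libraries (log axis) of the 10 genes, with the longest transcript (filled circles), the merged exons (squares) or the median transcript (triangles) as the length. There are no error bars because no values per mouse were used, and *Id2* lies highest at each length, at 1937, 2399 and 3719.

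*Tgfb1*, which encodes the main TGF-beta isoform, lies on chromosome 7 (GRCm38, 25687002 to 25705077, plus strand) and had a mean normalized count of 252, at percentile 38.2 of the genes above 10. Per kb of the longest transcript this was 98.1, and 50.1 per kb of merged exons, the largest relative fall among the 10 genes on that change of length. The other isoforms were lower, with mean normalized counts of 15.1 for *Tgfb2* and 31.5 for *Tgfb3*, or 2.96 and 9.32 per kb of the longest transcript.

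The activin subunit genes *Inhbc* and *Inhbe*, known for expression in hepatocytes, exceeded *Tgfb1* per kb of the longest transcript, at 830.3 and 200.5. Per kb of the median transcript, *Inhbc* (830.3) still exceeded *Tgfb1* (360.5), and *Inhbe* (200.5) did not. *Gdf15*, a stress-induced member of the family, had 484 per kb of the longest transcript. The myostatin gene *Mstn*, known from muscle, had a mean normalized count of 0.35. In all, 8 of 10 genes in the list of TGF-beta and activin ligands had a mean normalized count above 10.

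Among the BMP ligands, 7 of 7 genes lay above 10. Per kb of the longest transcript, *Bmp2* was at 169.9 and *Gdf2*, which encodes BMP9, at 144, both above *Tgfb1*. On the same scale *Bmp6*, the ligand tied to iron sensing, was at 36.1, and *Bmp10* was the lowest at 4.34. Per kb of the median transcript, both *Bmp2* (169.9) and *Gdf2* (144) lay below *Tgfb1* (360.5). At that length *Bmp6* (193) lay above *Bmp2* and *Gdf2*, and also below *Tgfb1*.

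*Tgfbr1*, the type I receptor (chromosome 4, 47353222 to 47414931, plus strand), had a mean normalized count of 939, and *Tgfbr2*, the type II receptor (chromosome 9, 116084293 to 116175360, minus strand), had 1317. Per kb of the longest transcript the receptors came together, at 163.06 and 162.70, a ratio of *Tgfbr2* to *Tgfbr1* of 0.998. The ratio was 1.12 on merged exons and 0.444 on the median transcript, so both their closeness and their order depend on the length chosen. Per kb of the longest transcript, *Tgfbr1* was 1.66 times *Tgfb1*, with a range of 1.42 to 2.87 over the 3 lengths.

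The other receptors spanned a wide range of levels. Of the list of TGF-beta and activin receptors, 5 of 6 genes lay above 10, with *Acvr1c* (5.42) below. Of the BMP receptors, 4 of 5 lay above 10, with *Bmpr1b* (1.37) below, and *Bmpr1a*, a type I receptor, was the highest per kb at 209. *Bmpr2*, a type II receptor for BMPs, had 98.2 per kb. Among the co-receptors, *Hfe2*, which encodes hemojuvelin, the hepatocyte BMP co-receptor of iron control, had 1413 per kb, and *Eng*, an endothelial co-receptor, had 469. *Bambi*, a pseudoreceptor without kinase activity, had 16.7 per kb.

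*Smad4*, the shared partner of the receptor-regulated Smads, was the highest of the 8 Smad genes per kb of the longest transcript, at 282, from a mean normalized count of 953. *Smad3*, which carries the TGF-beta signal (chromosome 9, 63646767 to 63757994, minus strand), had a mean normalized count of 454 and 89.1 per kb. *Smad4* was 3.16 times *Smad3* per kb of the longest transcript, with a range of 1.32 to 3.16 over the lengths tried. The receptor-regulated Smads that are not among the 10 genes were *Smad1* (153 per kb), *Smad9* (128), *Smad5* (123) and *Smad2* (95.4). *Smad3* was the lowest of the 5 receptor-regulated Smads on that scale and per kb of merged exons (81.9, beside 87.9 for *Smad2*). Per kb of the median transcript it was the highest of the 5, at 974 beside 591 for *Smad2*, so its place depends on the length chosen.

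Per kb of the longest transcript, the inhibitory Smads were the lowest of the 10 genes, although *Tgfb1* lay below *Smad6* per kb of merged exons (50.1 against 53.3) and *Id1* lay lowest per kb of the median transcript (109). *Smad6*, known for its action against BMP signalling (chromosome 9, 63953076 to 64022059, minus strand), had a mean normalized count of 171 and 57.6 per kb. *Smad7*, which acts on both branches and lies on chromosome 18 with *Smad4*, had 354 and 82.8 per kb. *Smad7* was 1.44 times *Smad6*, with a range of 1.09 to 1.47 over the 3 lengths, and *Smad3* was 1.08 times *Smad7*, with a range of 1.04 to 2.18. *Smad4* exceeded *Smad6* by 4.89 times, with a range of 3.13 to 4.89. *Smad3* and *Smad6* face the same direction on chromosome 9, and their gene models are separated by 195 kb, which holds 0 other genes of the deposited table that matched 1 gene model.

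The 3 *Id* genes differed widely in level. *Id2* (chromosome 12, 25093799 to 25097140, minus strand) had a mean normalized count of 4723, at percentile 93.3 of the genes above 10, and 2399 per kb. *Id3* (chromosome 4, 136143497 to 136145755, plus strand) had 774 and 606 per kb. *Id1* (chromosome 2, 152736251 to 152737410, plus strand) had 114, at percentile 25.8, and 98.2 per kb. *Id2* was therefore 24.4 times *Id1* per kb, with a range of 19.7 to 34.2 over the 3 lengths, and 3.96 times *Id3*, with a range of 3.55 to 4.48. *Id3* was 6.16 times *Id1*, with a range of 4.40 to 9.63. The order *Id2*, *Id3*, *Id1* was the same for each length.

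*Id4*, the remaining family member, had a mean normalized count of 45.5 and 11.8 per kb. None of the 10 genes shares an exonic base with another GENCODE gene. Of the other pathway genes given values here, *Id4*, *Tgfb2*, *Tgfb3*, *Inhbc*, *Bmp6*, *Acvr1c*, *Bmpr1a*, *Eng*, *Nedd4l* and *Fn1* share exonic bases with a gene on the opposite strand, so their reads may be mixed if strand was not used in counting. *Smad5* and *Smurf2* share exonic bases with a small RNA gene on the same strand, and their levels are uncertain to that extent. The E proteins, which the ID proteins bind, were expressed at 193 per kb for *Tcf3*, 131 for *Tcf12* and 84.0 for *Tcf4*. Those values are per kb of the longest transcript, where *Id2* was above each of these and *Id1* lay between *Tcf4* and *Tcf12*. Per kb of merged exons, *Id1* (98.2) lay above *Tcf12* (53.1) and *Tcf4* (26.3). Per kb of the median transcript, *Tcf4* (766) was the highest E protein gene and *Id1* (109) lay below each of them. The places of *Id1* and the E protein genes therefore depend on the length chosen.

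**Figure D2:**
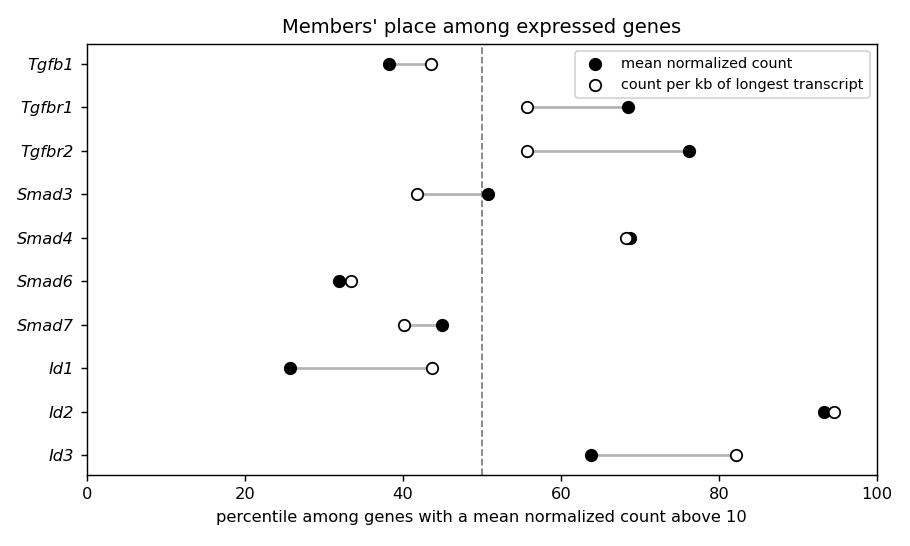
Percentile of each of the 10 genes among the genes with a mean normalized count above 10, by count (filled) and by count per kb of the longest transcript (open), with the dashed line at the middle gene. *Id2* lies at percentiles 93.3 and 94.5, and *Smad6* at 31.9 and 33.4.

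The rest of the pathway was described with 13 lists of 83 genes, which include the 10. Of the 73 others, 64 (87.7%) had a mean normalized count above 10, with a median of 397 beside 614 for the 10 genes. Regulators inside the cell were mostly detected, 11 of 12. Per kb of the longest transcript, the highest was *Ppm1a*, a phosphatase reported to act on Smads, with 640.1. The ubiquitin ligase genes *Smurf2* (321) and *Nedd4l* (249) followed, with *Ski* close behind at 237. Per kb of merged exons, *Nedd4l* (110) lay below *Ski* (236) and *Smurf1* (144), so its place depends on the length chosen. Regulators outside the cell were detected for 9 of 12, and the BMP antagonist genes *Nog* (0.31) and *Grem1* (listed at 0) were not above 10 in mean normalized count.

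Target genes ranged widely. *Hamp*, which encodes hepcidin and is induced by BMP signalling, had a mean normalized count of 12276 and 29942 per kb, although reads may be shared with its near-identical copy *Hamp2*. *Fn1*, the fibronectin gene, had 6395 per kb, and *Atoh8*, a further BMP target, had 283. *Col1a1* and *Col1a2*, the type I collagen genes, had 26.8 and 58.0 per kb, and *Timp1* had a mean normalized count of 2.09.

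**Figure D3:**
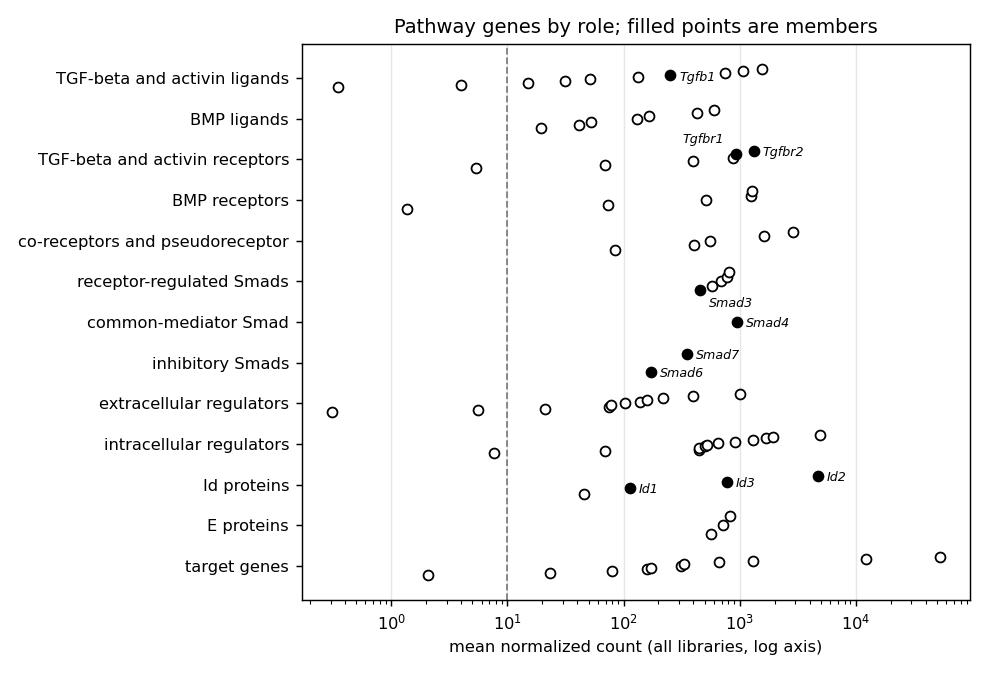
Mean normalized count over all libraries (log axis) of the pathway genes by role, with the 10 genes filled and named and the others open. The dashed line marks a count of 10, *Grem1* is listed at 0 and left out, and *Id2* (4723) lies to the right of *Id3* (774) and *Id1* (114).

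The tissue label was checked against cell markers. All 6 hepatocyte markers had mean normalized counts from 56732 (*Tat*) to 2155546 (*Alb*). Markers of other cells were also present, at 173 to 2374 for 6 Kupffer cell genes, 205 to 1273 for 7 endothelial genes, 81.7 to 4159.5 for 6 stellate cell genes and 25.8 to 1169.9 for 5 cholangiocyte genes. Of 6 blood cell genes, 4 lay above 10, the highest being *Ptprc* at 237, and *Hbb-bs* and *Hba-a1* were listed at 0. The reason for these 0 values was not tested, and they were not read as an absence of blood. No level by cell type was measured, so the levels of the 10 genes in whole liver cannot be assigned to any of these cell types. In whole tissue, fewer cells of a type and less RNA per cell cannot be told apart.

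RefSeq windows from 250 bases before to 50 after the start were found for 7 of the 10 genes, in 8 windows because *Tgfbr1* has a pair of starts, and *Id1*, *Smad4* and *Smad7* had none. The 8 windows held a median of 23.0 CpG dinucleotides, beside 7.0 for all 32851 windows. *Tgfb1* had 30 and a GC content of 77.0%, and the second start of *Tgfbr1* had 3. CAGAC was found on either strand in 3 of the 8 windows, beside 49.6% of all windows, with 2 matches in *Id3* and 1 each in *Tgfbr2* and the second *Tgfbr1* window. GGCGCC was found in 2, for *Id2* and the first *Tgfbr1* start, beside 11.9% of all windows. The E-box CANNTG, the kind of site that E proteins bind, was found in 4 of 8, for *Id2*, *Smad6*, *Tgfbr2* and the second *Tgfbr1* start, beside 72.3% of all windows. *Tgfb1* and *Smad3* held none of the 3 motifs, which says only that these letters are absent from this window. Only runs before the receptor starts are shown. In the windows of *Id2* and *Id3*, 161 and 250 of the upstream bases lie in GENCODE exons.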

How the data were processed

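Liver mRNA was measured by RNA-seq in 3 WT and 3 *Pai-1*+/- mice. The authors sequenced the libraries as 75 bp single-end reads, aligned them to mm10 with STAR and used DESeq2, both within Illumina's RNA Express. The submitters' processing notes also name HOMER. Versions, annotation, filters and strand setting are not given in the sources used here. The signal used is the authors' deposited mean normalized count, in which each library's counts were divided by its size factor and then averaged over the libraries. The deposited table also holds the authors' log2 fold changes, standard errors, statistics and p-values for the genotypes, which were not used. The 6 columns of deposited counts per animal were not used, because their names match no sample label. The planned edgeR test of the genotypes, its alternatives and the search for genes of similar pattern were therefore not run, and protein identity was not computed here.

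Symbols were matched to GENCODE M21, which uses GRCm38 (mm10), and 96.4% of the 12971 genes above 10 and 118 of 119 listed genes matched 1 gene model (*Ctgf* did not). Levels were divided by the longest transcript, with merged exons and the median transcript as alternatives. Motifs were counted on both strands of RefSeq windows (GRCm38.p6). A percentile is the share of genes at or below a level. The depth and precision of each library were not assessed here. The members and lists were chosen with earlier results of these data known, and genes are named as members or as genes of these lists. The results of some genes are not given separately. The motif search was tested on simulated data, 200 sequences of A and T with known sites of CAGAC or GGCGCC. The search for CANNTG was not tested in this way. Python 3.11.15, NumPy 2.4.6, pandas 2.3.3 and Matplotlib 3.10.9 were used.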

Additional observations from a re-analysis of the deposited data

How the results depend on the processing

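No paired analysis was possible because the columns of counts carry animal numbers and not the replicate numbers of the labels. For the same reason the genotype test was not run with DESeq2 size factors, without a filter or with a mouse left out. The number of the 10 genes above the threshold was 10 at mean normalized counts of 1, 10 and 100, and that of the 73 other pathway genes was 70, 64 and 48. The median level of the 10 genes was 130.5 per kb of the longest transcript, 121 per kb of merged exons and 480.0 per kb of the median transcript. Merged exons moved 9 of the 10 single levels and left *Id1* as it was, and the lowest ratio to the longest transcript was 0.510, for *Tgfb1*. The median transcript moved all 10, by up to 10.9 times for *Smad3*, whose median transcript in GENCODE is 466 bases. The median percentile of the 10 genes was 57.3 among genes above 10 and 68.7 among genes above 0. In the upstream 250 bases alone, CAGAC and GGCGCC were found in 3 and 2 of the 8 windows, as in the whole windows, and CANNTG in 2 in place of 4, beside 66.2% of all windows. Values per library were not used, so the precision of each level is unknown here.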
